A study of Homo sapiens with 6 samples.

Results

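The genes that encode inhibitors of cyclin-dependent kinases (CDKs), together with MTAP, were examined in U87-MG cells. The members were the rows of the gene table whose symbol was CDKN1A, CDKN1B, CDKN1C, CDKN2A, CDKN2B, CDKN2C, CDKN2D, CDKN3 or MTAP, which gave 9 of 61806 genes. U87-MG is an established human glioblastoma line, labelled as glioma. There were 3 libraries of the negative control (NC), whose genotype label is wildtype, and 3 libraries labelled GRIK1 siRNA, whose genotype label is GRIK1 knockdown. The last 3 are called siRNA-labelled libraries below. The study's methods describe transfection of synthetic siRNAs, while the series' design text speaks of shRNA, and no time after transfection is given in the sources used here. The study's methods also number 3 different siRNAs against GRIK1 from 1 to 3. The text of the study says that siRNA1 was carried into its later experiments, without naming the siRNA behind each sequenced library. The labels do not say whether the library numbers stand for those siRNAs or for replicates, nor whether the libraries came from separate cultures, so the p-values below measure only the spread between these libraries.

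Progression through the cell cycle depends on CDKs bound to cyclins. The CIP/KIP inhibitors p21 (CDKN1A), p27 (CDKN1B) and p57 (CDKN1C) bind CDK2 and other cyclin-CDK complexes. The INK4 inhibitors p16 (CDKN2A), p15 (CDKN2B), p18 (CDKN2C) and p19 (CDKN2D) bind CDK4 and CDK6 and keep them from D-type cyclins, which leaves the retinoblastoma protein free to hold back E2F transcription factors. CDKN2A also encodes ARF, a second protein read in another frame. CDKN3 is a phosphatase that removes an activating phosphate from CDKs. MTAP recycles methylthioadenosine to adenine and methionine, and its gene lies beside CDKN2A and CDKN2B in band 9p21, which is lost in many glioblastomas. U87-MG is known for loss of CDKN2A and CDKN2C.

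Total counts per library lay between 11099909 and 14006968. GRIK1, the targeted gene, had 18, 9 and 8 counts in NC libraries 1, 2 and 3 and 15, 20 and 20 counts in the siRNA-labelled libraries 1, 2 and 3. GRIK1 was thus not lower in the libraries labelled as its knockdown, and every direction below is that of the libraries as labelled. NC library 3 stood apart from the other libraries. Ribosomal protein genes took 8.45% of its counts, against 4.75% and 4.99% in NC libraries 1 and 2 and 4.35% to 4.37% in the siRNA-labelled libraries. The common dispersion of the counts of the 6 libraries was 0.0391 and dropped to 0.00298 once NC library 3 was left out, so results are given with and without it. Of 11 astrocytic and glioma markers, 4 reached 1 FPKM (reads scaled to the exonic length of a gene and to the total count of the library) in every library, namely VIM (825 to 1076 FPKM), CD44 (50.8 to 71.6 FPKM), EGFR (6.63 to 16.45 FPKM) and SLC1A3 (2.0 to 3.48 FPKM). The astrocyte marker GFAP lay between 0.05 and 0.28 FPKM, the stem cell factor SOX2 at 0.12 FPKM at most, and AQP4 had 0 counts. Summed markers of blood stayed at or under 0.13 FPKM and those of endothelium at or under 0.08 FPKM. Summed epithelial markers were at 5.38 to 6.39 FPKM in NC and 4.58 to 5.81 FPKM in the siRNA-labelled libraries, and summed neuronal markers at 1.88 to 2.81 FPKM and 2.47 to 2.62 FPKM. In bulk RNA, a different share of cells that express a gene and a different level per cell cannot be told apart.

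The members fell into 4 genes that were transcribed at 2 FPKM or more and 5 that gave almost no reads. A mean of 0.5 FPKM over the 6 libraries was required for the test, and CDKN1A, CDKN1B, CDKN2D and CDKN3 passed it. CDKN1C, CDKN2A, CDKN2B, CDKN2C and MTAP did not. The promoters of the 4 transcribed genes are shown because the comparisons between groups rest on these genes. Each runs from 250 bases before to 50 bases after a RefSeq transcription start on GRCh38.p14, and is written 5′ to 3′ on the strand of the gene. Capitals mark matches on either strand to the GC box GGGCGG, the CCAAT box CCAAT, the TATA box TATAAA and the cell cycle homology region (CHR) TTTGAA or TTCGAA, a motif named for its place in promoters of cell cycle genes. The CDKN1A window is chr6:36678464-36678763 (+), the CDKN1B window chr12:12717118-12717417 (+), the CDKN2D window chr19:10568930-10569229 (-) and the CDKN3 window chr14:54396757-54397056 (+).
CDKN1A: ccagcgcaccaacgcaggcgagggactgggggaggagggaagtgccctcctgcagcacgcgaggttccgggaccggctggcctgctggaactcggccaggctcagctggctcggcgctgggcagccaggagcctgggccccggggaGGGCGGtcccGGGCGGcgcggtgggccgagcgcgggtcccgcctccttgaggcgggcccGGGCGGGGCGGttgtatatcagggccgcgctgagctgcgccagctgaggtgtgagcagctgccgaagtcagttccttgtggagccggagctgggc
CDKN1B: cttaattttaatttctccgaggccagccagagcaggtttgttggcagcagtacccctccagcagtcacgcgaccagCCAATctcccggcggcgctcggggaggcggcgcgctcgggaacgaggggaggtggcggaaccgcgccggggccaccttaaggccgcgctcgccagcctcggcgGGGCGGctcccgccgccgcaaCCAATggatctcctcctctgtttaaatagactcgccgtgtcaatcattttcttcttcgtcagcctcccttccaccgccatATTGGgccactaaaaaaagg
CDKN2D: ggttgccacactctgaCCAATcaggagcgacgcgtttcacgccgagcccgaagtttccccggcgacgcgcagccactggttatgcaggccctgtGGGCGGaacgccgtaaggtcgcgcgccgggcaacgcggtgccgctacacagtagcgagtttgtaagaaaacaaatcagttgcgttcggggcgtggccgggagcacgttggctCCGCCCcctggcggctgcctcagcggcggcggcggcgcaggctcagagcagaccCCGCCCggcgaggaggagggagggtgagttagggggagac
CDKN3: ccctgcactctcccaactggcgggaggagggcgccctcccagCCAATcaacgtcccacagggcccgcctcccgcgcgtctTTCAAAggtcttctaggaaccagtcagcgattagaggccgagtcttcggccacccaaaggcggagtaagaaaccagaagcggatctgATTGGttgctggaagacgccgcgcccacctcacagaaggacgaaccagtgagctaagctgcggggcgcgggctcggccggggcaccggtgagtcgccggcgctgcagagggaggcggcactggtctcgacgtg

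The 4 windows were rich in G and C, at 74.3% for CDKN1A, 62.3% for CDKN1B, 68.0% for CDKN2D and 65.7% for CDKN3, against a median of 58.7% over 35116 promoters. CDKN1A held 4 GC boxes, the nearest pair of which share a base, and no CCAAT box. CDKN1B held 1 GC box and 3 CCAAT boxes, and CDKN2D held 3 GC boxes and 1 CCAAT box. CDKN3 had no GC box, 2 CCAAT boxes and 1 CHR match, read TTCAAA on this strand, from base -170 to -165 relative to the start. Of all promoters, 45.0% held a GC box, 34.6% a CCAAT box, 16.4% a CHR match and 11.5% a TATA box. RefSeq promoters were found for 8 of the 9 members. Among their 11 promoters, GC boxes were found in 8, CCAAT boxes in 5, a CHR in 1 and a TATA box in 1, that of MTAP. These are matches of letters and not measured binding sites.

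CDKN1A was by far the most abundant inhibitor. In NC libraries 1, 2 and 3 the levels per length were 63.3 ± 3.94 FPKM for CDKN1A, 10.3 ± 3.39 for CDKN3, 4.74 ± 1.26 for CDKN2D and 4.51 ± 0.122 for CDKN1B (SD, n = 3). In the siRNA-labelled libraries they were 88.5 ± 6.07 for CDKN1A, 11.2 ± 1.08 for CDKN3, 4.54 ± 0.0551 for CDKN1B and 2.60 ± 0.517 for CDKN2D (SD, n = 3). CDKN2D and CDKN1B overlapped in NC, and CDKN2D lay below CDKN1B in each siRNA-labelled library. Of the summed FPKM of the inhibitor genes, CDKN1A made up 80.4%, 78.3% and 70.3% in NC and 84.2%, 81.5% and 82.5% in the siRNA-labelled libraries. The summed level itself was 81.1, 84.1 and 83.5 FPKM in NC and 113, 105 and 102 FPKM in the siRNA-labelled libraries, and the groups did not overlap.

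**Figure D1:**
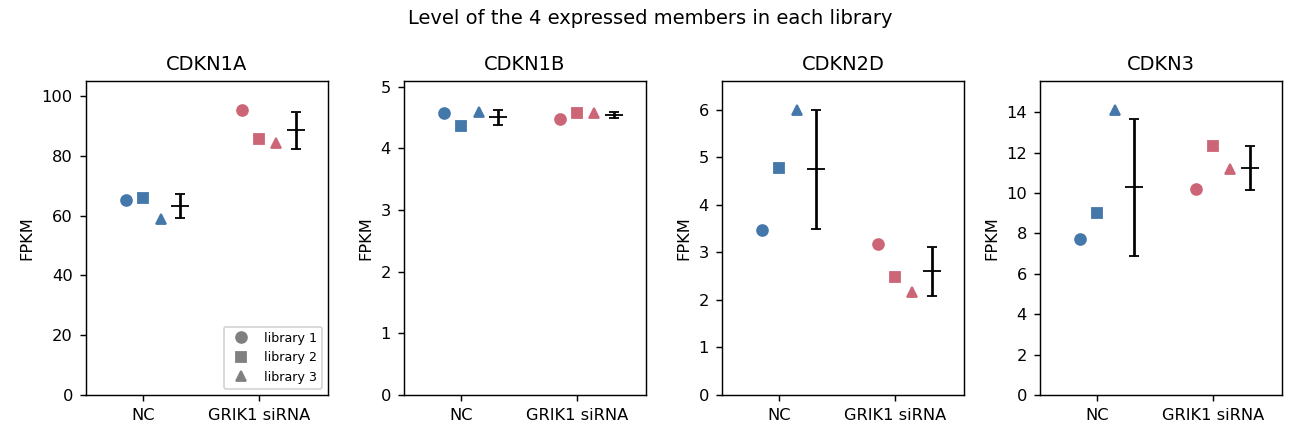
Level (FPKM, linear axis from 0) of CDKN1A, CDKN1B, CDKN2D and CDKN3 in each library, with circles, squares and triangles for libraries 1, 2 and 3 and black bars for the mean and SD of 3 libraries. CDKN1A is higher and CDKN2D lower in all 3 siRNA-labelled libraries than in the 3 NC libraries, CDKN1B overlaps, and NC library 3 is the highest of the 6 libraries for CDKN2D and CDKN3.

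None of the 4 tested members passed an adjusted p under 0.05 in edgeR's quasi-likelihood test with all 6 libraries (0 of 4). Of the 15870 tested genes 3.09% passed (1.61% higher and 1.48% lower), or 1.41% with an absolute log2 fold change over 1. At an unadjusted p under 0.05 there were 2 members, CDKN1A and CDKN2D, where 25.1% of all tested genes were, and DESeq2 gave these 2 an adjusted p under 0.05 against 10.6% of tested genes. Without NC library 3, edgeR gave 3 of 4 members an adjusted p under 0.05, where 35.2% of all tested genes passed, and 0 of 4 with an absolute log2 fold change over 1, where 3.09% did. In counts scaled by library, 2 of the 4 members did not overlap between the groups, CDKN1A higher and CDKN2D lower, and neither did 38.5% of tested genes.

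CDKN1A (ENSG00000124762, chromosome 6, 36676460 to 36687337, plus strand, GRCh38) encodes p21, which stops CDK2 and binds PCNA. Its levels were 65.2, 65.9 and 58.7 FPKM in NC libraries 1, 2 and 3. They were 95.5, 85.8 and 84.4 FPKM in the siRNA-labelled libraries 1, 2 and 3. All 3 siRNA-labelled libraries lay above all 3 NC libraries, and the lowest NC library was number 3. The log2 fold change was 0.40 (SE 0.11, unadjusted 95% interval 0.13 to 0.66), with an adjusted p of 0.0973 from edgeR and 0.0131 from DESeq2. Without NC library 3 it was 0.41 (95% interval 0.30 to 0.52), with an edgeR adjusted p of 1.43e-05. The size of the difference thus barely moved with that library, while its interval narrowed.

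CDKN1B (ENSG00000111276, chromosome 12, 12685498 to 12722369, plus strand) encodes p27, a brake on CDK2 that is set largely through protein turnover. It had 4.57, 4.37 and 4.59 FPKM in NC and 4.48, 4.58 and 4.57 FPKM in the siRNA-labelled libraries. The groups overlapped and all 6 values were close together. The log2 fold change was -0.08 (SE 0.12, 95% interval -0.35 to 0.20) with an adjusted p of 0.693 from edgeR. Leaving out NC library 3 gave an interval of -0.16 to 0.16, so a change past that size in either direction lies outside it.

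CDKN2D (ENSG00000129355, chromosome 19, 10566460 to 10569059, minus strand) encodes p19, and it was the one INK4 inhibitor with more than 3 counts in any library. It had 58, 80 and 126 counts in NC and 59, 47 and 43 counts in the siRNA-labelled libraries. Per length this was 3.47, 4.78 and 5.98 FPKM against 3.17, 2.47 and 2.16 FPKM. Every siRNA-labelled library was below every NC library, although NC library 1 and siRNA-labelled library 1 lay close together. The log2 fold change was -0.98 (SE 0.29, 95% interval -1.65 to -0.30), with an adjusted p of 0.104 from edgeR and 0.0380 from DESeq2. When NC library 3 was left out it was -0.69 (95% interval -1.16 to -0.23), with an edgeR adjusted p of 0.0209. Tested without the filter on low values, its log2 fold change of -1.009 had an edgeR adjusted p of 0.0361, in a test that gave 4.12% of 34080 genes, or 1.95% with an absolute log2 fold change over 1.

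CDKN3 (ENSG00000100526, chromosome 14, 54396849 to 54420218, plus strand) encodes a CDK-associated phosphatase whose transcript usually peaks late in the cell cycle. Its levels were 7.73, 9.0 and 14.1 FPKM in NC and 10.2, 12.35 and 11.2 FPKM in the siRNA-labelled libraries. The groups overlapped only through NC library 3, which was the highest of all 6 libraries. With all libraries the log2 fold change was 0.01 (SE 0.27, 95% interval -0.62 to 0.64), with an edgeR adjusted p of 0.980. Without NC library 3 it was 0.40 (95% interval 0.15 to 0.65), with an edgeR adjusted p of 0.0146. NC library 3 therefore decided whether CDKN3 differed between the groups, and its higher ribosomal protein share moved with that value. The part of that share in the result was not tested.

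**Figure D2:**
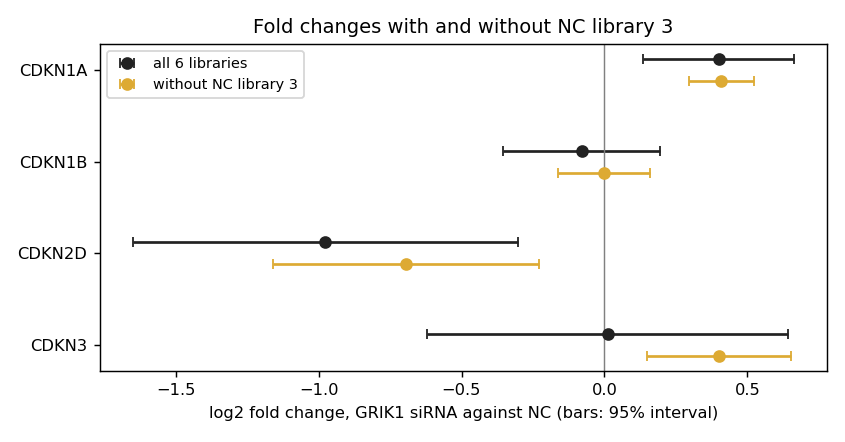
Log2 fold change of the 4 tested members, siRNA-labelled libraries against NC, from edgeR with all 6 libraries (black) and without NC library 3 (yellow), with unadjusted 95% intervals and a line at 0. CDKN1A lies right of 0 and CDKN2D left of 0 in both fits, CDKN1B sits at 0, and CDKN3 moves from 0.01 to 0.40 when NC library 3 is left out.

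The remaining 5 members gave a handful of reads at most. A single library with 1 FPKM of CDKN2A would have held 43.1 to 54.4 counts, and one with 1 FPKM of MTAP 161 to 203 counts, so the depth was ample to see low expression. A library with 0 counts still allows up to 3 counts (95% limit, counting error only). CDKN2C (ENSG00000123080, chromosome 1, 50960745 to 50974634, plus strand), which encodes p18, had 0 counts in each of the 6 libraries. CDKN2A (ENSG00000147889, chromosome 9, 21967752 to 21995301, minus strand) had 1, 1 and 2 counts in NC and 0, 1 and 1 in the siRNA-labelled libraries. The counts are per gene and do not separate p16 from ARF. CDKN2B (ENSG00000147883, chromosome 9, 22002903 to 22009305, minus strand), encoding p15, had 0, 2 and 1 counts and 0, 1 and 0 counts. CDKN1C (ENSG00000129757, chromosome 11, 2883213 to 2885775, minus strand), the imprinted gene of p57, had 3, 0 and 1 counts and 2, 0 and 1 counts. These 4 genes had at most 3 counts in every library, too few to compare the groups, so no fold change is given.

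MTAP (ENSG00000099810, chromosome 9, 21802636 to 21937651, plus strand) had 1, 0 and 7 counts in NC and 1, 0 and 1 counts in the siRNA-labelled libraries. The 7 counts all fell in NC library 3. The ratio of summed counts per total count was 0.237 with an exact 95% interval of 0.0245 to 1.19, which covers counting error only and includes 1. At 14527 exonic bases the highest of these values corresponds to 0.03 FPKM.

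The silence at 9p21 reached well beyond the members. The nearest protein-coding genes with at least 10 counts in every library were SLC24A2, which ends at 19789037 on chromosome 9 and had 182 to 260 counts, and TUSC1, which starts at 25676969 and had 108 to 274 counts. Between them lay 5.89 Mb with 90 genes, 27 of them protein-coding. Of those 27 genes, 20 had 0 counts in all 6 libraries and 25 had at most 3 counts in each library. The exceptions were MTAP, with its 7 counts, and ELAVL2, a neuronal RNA-binding protein, with 4 to 18 counts. Over all 19838 protein-coding genes of GENCODE 29, 27.7% had at most 3 counts in each library and 16.2% had 0 counts. The stretch was defined to hold no protein-coding gene with at least 10 counts in every library. Its high share of silent genes therefore follows in part from that definition and is not particular to 9p21. In the stretch that held the most genes, from PTPRJ to TNKS1BP1 on chromosome 11, 64 of 66 protein-coding genes had at most 3 counts in each library.

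The 27 genes were of unlike kinds. Type I interferon genes, which most cells leave off unless infected, made up 16 of them (IFNB1, IFNW1, IFNE and 13 IFNA genes), and each had 0 counts. The 3 members and ENSG00000264545, which has no symbol, were a further 4. The other 7 were MLLT3 (3 counts summed over the 6 libraries), FOCAD (6), HACD4 (0), KLHL9 (6), DMRTA1 (0), ELAVL2 (52) and IZUMO3 (0). MLLT3 is a chromatin reader of the super elongation complex, and KLHL9 is an adaptor of a cullin ubiquitin ligase used in mitosis. The antisense gene CDKN2B-AS1 (ANRIL) had 1 count, in NC library 3, and CDKN2A-DT had 0. The highest count of any gene in the interval was 21, in NC library 3, for the processed pseudogene CLIC4P1. Among 9945 such stretches between neighbouring transcribed protein-coding genes, this stretch ranked 11 by the number of genes it held and 23 by length.

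A shorter stretch of the same kind surrounded CDKN2C. It ran for 2.76 Mb on chromosome 1, from SPATA6 (288 to 385 counts) to RNF11 (1551 to 2704 counts), and held 7 protein-coding genes. All 7 had at most 3 counts in each library, and 6 of them had 0 counts (AGBL4, BEND5, ELAVL4, DMRTA2, C1orf185 and CDKN2C itself). The other was FAF1, an adaptor in protein degradation that is transcribed in most tissues, whose end lies 478 bases from CDKN2C. It had 0, 2 and 1 counts in NC and 0, 3 and 0 in the siRNA-labelled libraries. This stretch ranked 104 by genes and 106 by length. RNF11, 0.262 Mb away, was transcribed in every library.

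CDKN1C lay in different surroundings. Its stretch spanned 0.496 Mb, from TSSC4 (202 to 314 counts) to SLC22A18 (204 to 315 counts), and SLC22A18 begins 0.0139 Mb from it. Within 1 Mb of CDKN1C, 13 of 32 protein-coding genes had at least 10 counts in every library, against 0 of 23 around CDKN2A and 6 of 11 around CDKN2C. So the genes around CDKN2A were silent on both sides, those around CDKN2C on one side, and those around CDKN1C on neither. The windows differ in the kinds of gene they hold. That of CDKN2A includes all the interferon genes named above, and to its right only CDKN2B and DMRTA1 lie clear of CDKN2A. RNA counts do not measure DNA copy number, and a lost gene and a silenced gene cannot be told apart from them.

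**Figure D3:**
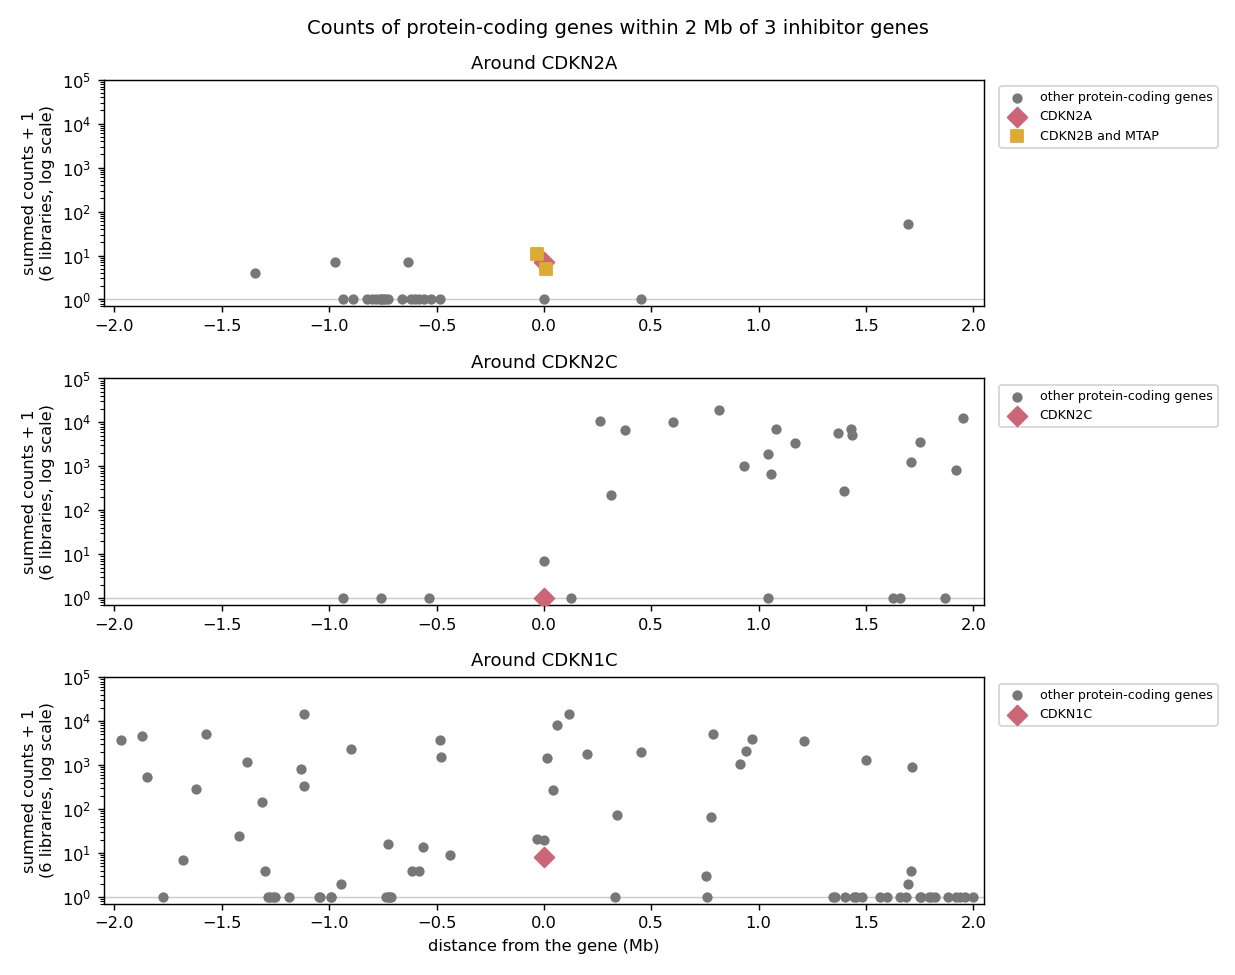
Counts summed over the 6 libraries, plus 1 (log axis), of each protein-coding gene within 2 Mb of CDKN2A, CDKN2C and CDKN1C, against its distance from that gene in Mb. Red diamonds mark the named gene and yellow squares CDKN2B and MTAP. Around CDKN2A no gene reaches 10 counts in every library, transcribed genes begin 0.262 Mb to the right of CDKN2C, and CDKN1C has transcribed neighbours on both sides.

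The inhibitors were next set against kinases and against each other, as FPKM ratios within each library. These ratios were chosen after the values had been seen, and 10 were computed, 7 of an inhibitor to a kinase and 3 of an inhibitor to another. CDKN1A over CDK2 was 10.04, 9.76 and 9.72 in NC and 21.3, 19.4 and 17.3 in the siRNA-labelled libraries. The NC values were nearly equal, NC library 3 included, and each siRNA-labelled library was far above them. The mean log2 difference was 0.97, and 0.96 without NC library 3. CDKN1A was higher and CDK2 lower in each siRNA-labelled library, so both genes moved this ratio. CDKN1B over CDK2 was 0.704, 0.647 and 0.760 in NC and 0.998, 1.04 and 0.938 in the siRNA-labelled libraries. The log2 difference was 0.50, with CDKN1B itself level and CDK2 lower in each siRNA-labelled library. CDKN2D over CDK6 was 1.29, 1.56 and 1.86 in NC and 0.828, 0.650 and 0.545 in the siRNA-labelled libraries. CDK6 itself had 2.68, 3.06 and 3.22 FPKM in NC and 3.83, 3.8 and 3.96 FPKM in the siRNA-labelled libraries. CDKN2D was lower and CDK6 higher in each siRNA-labelled library, so both genes moved this ratio.

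CDKN3 over CDK1 was 0.924, 1.006 and 0.976 in NC and 1.63, 1.69 and 1.87 in the siRNA-labelled libraries. NC library 3, which was highest for CDKN3, was also highest for CDK1 at 14.5 FPKM, and its ratio lay with those of the other NC libraries. The mean log2 difference of this ratio was 0.84, whether or not NC library 3 was included. With all libraries CDKN3 itself overlapped between the groups. CDK1 was lower in each siRNA-labelled library (5.96 to 7.32 FPKM) than in NC (8.37 to 14.48 FPKM), so CDK1 contributed to this difference. Groups did not overlap for 8 of the 10 ratios, which were 5 of the 7 to a kinase and all 3 between inhibitors. Of single tested genes, 38.5% did not overlap in counts scaled by library. The share over ratios of other gene pairs was not computed. Each of the 8 ratios had a two-sided exact permutation p of 0.1, the smallest that 3 libraries against 3 can give. After Benjamini-Hochberg adjustment over the 10 ratios it was 0.125. Because the ratios were picked from seen values and share genes, these p-values describe the order of the libraries and are no independent support. CDKN2D over CDK4 overlapped (exact permutation p = 0.6), as did CDKN3 over CDK2 (exact permutation p = 0.3).

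**Figure D4:**
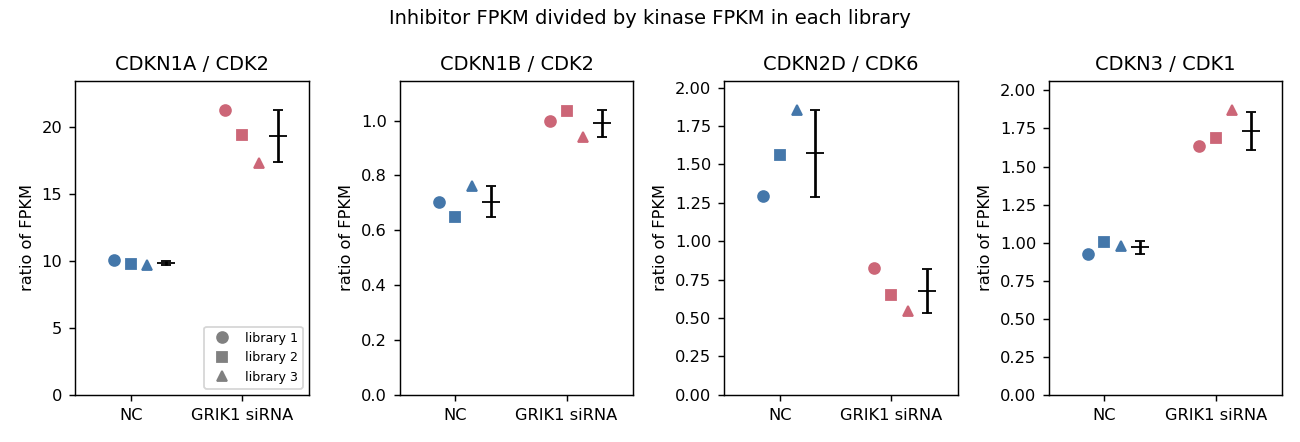
Ratio of the FPKM of an inhibitor to that of a kinase it acts on, in each library (linear axes from 0), with circles, squares and triangles for libraries 1, 2 and 3 and black bars for the mean and SD of 3 libraries. The ratios of CDKN1A and CDKN1B to CDK2 and of CDKN3 to CDK1 are higher, and that of CDKN2D to CDK6 lower, in all 3 siRNA-labelled libraries.

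The partners of the INK4 inhibitors are the D-type cyclins and their kinases. Of 5 listed, 4 were tested and 0 passed an adjusted p under 0.05 in edgeR, with 2 at an unadjusted p under 0.05 (25.1% of all tested genes, as for each list below) and 1 by DESeq2. With NC library 3 left out, 3 of the 4 passed, 1 higher and 2 lower. The higher one was CDK6, named because a ratio above rests on it. Its log2 fold change was 0.28 with all libraries (edgeR adjusted p 0.265) and 0.40 without NC library 3 (edgeR adjusted p 0.00109). Over all tested genes, 3.09% passed in edgeR, 10.6% by DESeq2 and 35.2% in edgeR with that library left out. These shares hold for each list below. The median log2 fold change of the 4 genes was -0.32, against -0.02 over all tested genes. CDK4 had 40.9, 39.4 and 81.1 FPKM in NC and 34.9, 29.3 and 29.65 FPKM in the siRNA-labelled libraries, with a log2 fold change of -0.90 (edgeR adjusted p 0.149). NC library 3 was far above the others, and without it CDK4 fell by 0.39 on the log2 scale (edgeR adjusted p 0.000256). CCND1, the cyclin D1 gene, had a log2 fold change of -0.47 (edgeR adjusted p 0.0821) with all libraries and fell by 0.53 without NC library 3 (edgeR adjusted p 2.16e-07).

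Partners of the CIP/KIP inhibitors numbered 8 tested genes of 9 listed, and each of the 8 had a negative log2 fold change with all 6 libraries. Excluding NC library 3, 5 were negative and 3 positive, and 3 passed, all lower, where 35.2% of all tested genes passed. None passed an adjusted p under 0.05 in edgeR (0 of 8), 3 had an unadjusted p under 0.05, and 1 passed by DESeq2. Their median was -0.37, and -0.17 without NC library 3. CCNE2, a cyclin of the G1/S step, had a log2 fold change of -0.91 (edgeR adjusted p 0.103), or -0.72 (0.0359) without NC library 3. For CDK1, the mitotic kinase, it was -0.82 (edgeR adjusted p 0.124), or -0.44 (0.00255) without that library. CDK2, named because the ratios above rest on it, had 6.49, 6.75 and 6.04 FPKM in NC and 4.49, 4.42 and 4.87 FPKM in the siRNA-labelled libraries. Its groups did not overlap, with a log2 fold change of -0.57 (edgeR adjusted p 0.0509) that became -0.55 without NC library 3 (edgeR adjusted p 0.000385).

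Downstream of the inhibitors, 11 of 13 listed genes of the retinoblastoma and E2F group were tested. Adjusted p was under 0.05 in edgeR for 2, both lower, and the median log2 fold change was -0.37. E2F1, an activator of S-phase genes, fell from 8.37, 8.69 and 6.58 FPKM in NC to 3.36, 2.42 and 3.43 FPKM in the siRNA-labelled libraries. Its log2 fold change was -1.44 (SE 0.18, edgeR adjusted p 0.0236), and -1.50 without NC library 3. TFDP1, which pairs with E2F factors on DNA, fell from 36.6 to 38.3 FPKM in NC to 26.2 to 27.8 FPKM (log2 fold change -0.56, edgeR adjusted p 0.0448), and its log2 fold change was -0.51 without NC library 3. RB1 itself had a log2 fold change of -0.06 (edgeR adjusted p 0.761). After NC library 3 was left out, 6 of the 11 passed, 5 of them lower, where 35.2% of all tested genes passed.

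The machinery that degrades or transcribes p27 and p21 had 16 tested genes of 17 listed. In edgeR 2 fell and 0 rose. CUL4B, a cullin scaffold, fell from 3.98 to 4.17 FPKM in NC to 2.60 to 2.71 FPKM (log2 fold change -0.71, edgeR adjusted p 0.0304). DTL, the substrate receptor that brings p21 to the CUL4 ligase, fell from 1.26 to 1.72 FPKM to 0.82 to 0.89 FPKM (log2 fold change -0.94, edgeR adjusted p 0.0393). Leaving out NC library 3 gave -0.66 for CUL4B and -1.02 for DTL, both with an adjusted p under 0.05. The median of the 16 was -0.08, and 4 rose and 5 fell without NC library 3, where 35.2% of all tested genes passed.

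Of the 13 genes listed as repressors and activators of the INK4/ARF locus, each was tested and 0 passed an adjusted p under 0.05 in edgeR, with 4 at an unadjusted p under 0.05 and 2 by DESeq2. With NC library 3 left out, 5 of the 13 passed, 2 higher and 3 lower, where 35.2% of all tested genes passed. The median went from -0.11 to 0.02. KDM6B, a demethylase that removes Polycomb marks, had a log2 fold change of 0.87 (edgeR adjusted p 0.179), and RNF2, a Polycomb ubiquitin ligase, one of -0.73 (edgeR adjusted p 0.0951). Both passed without that library, at 0.52 and -0.46. The methionine salvage enzymes and MTAP partners gave 0 of 12 in edgeR, with 2 at an unadjusted p under 0.05 and 1 by DESeq2. Once NC library 3 was left out, 7 of the 12 passed, 3 higher and 4 lower, against 35.2% of all tested genes. APIP, the next-but-one enzyme after MTAP in the pathway, had a log2 fold change of -0.76 (edgeR adjusted p 0.109) and AMD1, of polyamine synthesis, one of -0.73 (edgeR adjusted p 0.180), against -0.46 and -0.27 without NC library 3, where both passed. PRMT5, whose activity is limited in cells without MTAP, had 9.90, 11.1 and 10.5 FPKM in NC and 15.3, 12.55 and 12.1 FPKM in the siRNA-labelled libraries (log2 fold change 0.25, edgeR adjusted p 0.309, or 0.31 and 0.024 without NC library 3). PRMT5 was named after its values were seen.

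CDKN3 belongs to the genes that peak in G2 and mitosis, of which 16 others were tested. In edgeR 1 rose and 0 fell, and 13 of the 16 had a negative log2 fold change, with a median of -0.24 (-0.09 without NC library 3). The gene that rose was KIF20A, a kinesin of cytokinesis, from 1.96, 1.40 and 1.37 FPKM to 3.67, 3.56 and 3.05 FPKM (log2 fold change 1.03, SE 0.18, edgeR adjusted p 0.0378). With NC library 3 left out, 1 of the 16 rose, which was KIF20A at 0.997, and 2 fell. Of 9 tested senescence genes, which often accompany p21 and p16, 1 rose and 2 fell in edgeR, with a median of -0.01. The log2 fold change was positive for 3 of the 9 and negative for 6. IGFBP3, a secreted binder of insulin-like growth factors, rose (log2 fold change 0.67, edgeR adjusted p 0.0449). LMNB1, a nuclear lamin, fell (log2 fold change -0.92, edgeR adjusted p 0.0444), as did HMGA2, a chromatin protein (log2 fold change -0.998, edgeR adjusted p 0.0387). With NC library 3 left out, 1 rose and 3 fell, with values of 0.59 for IGFBP3, -1.04 for LMNB1 and -1.16 for HMGA2. With any library other than NC library 3 left out, 0 of all tested genes had an edgeR adjusted p under 0.05 and 2238 to 4434 had an unadjusted p under 0.05, so each of these list calls is lost there.

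The genes whose log2 scaled counts followed CDKN1A, CDKN1B and CDKN3, the tested members that the rule for named genes covers here, most closely over the 6 libraries were listed as a description. For CDKN1A these were AHCYL1 (Pearson r = 0.998), WDR44 (0.997) and RNU6-1157P (0.997), for CDKN1B CMSS1 (0.999), TMEM128 (0.998) and AMN1 (0.998), and for CDKN3 THOC7 (0.998), LGR4 (0.997) and NSUN3 (0.996). All the points come from the same 6 libraries, which share their depth and the departure of NC library 3. For each member these are the 3 highest correlations over all tested genes. With only 6 points, values near 1 can follow from that selection alone.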

How the data were processed

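RNA of 6 libraries was measured, 3 NC and 3 labelled GRIK1 siRNA, grouped by label. The authors deposited raw counts per gene and the FPKM they computed from them, from the total count and exonic length, and that formula gave 100% of the deposited FPKM values within 0.005. The submitters' processing notes name cutadapt 1.9.1, HISAT2, HTSeq and GRCh38. The strand setting is not given in the sources used here. Of 61806 genes, 15870 with a mean FPKM of at least 0.5 were tested with edgeR 4.0.16 (quasi-likelihood, TMM, no block, Benjamini-Hochberg adjustment over all tested genes), R 4.3.3. Alternatives were DESeq2 1.42.0, RLE scaling, limma 3.58.1 on log2(FPKM + 1) and log2(FPKM + 0.1), other filters, the replicate number as a block and leaving out each library. The code was tested on simulated data. Members and lists were chosen with earlier results of these data known. The result of 1 of the lists is not reported here. Promoters were searched in RefSeq (GRCh38.p14), and gene types were taken from GENCODE 29. Named genes were the members, the antisense and divergent genes of 9p21, GRIK1, list genes with an adjusted p under 0.05 or otherwise the 2 of a list with the largest log2 fold change, the genes bounding and filling the silent stretches, and the 3 genes most correlated with CDKN1A, CDKN1B and CDKN3. Intervals of fold changes rest on the spread between libraries, while the exact interval of MTAP and the limit for 0 counts cover counting error only.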

Additional observations from a re-analysis of the deposited data

How the results depend on the processing

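CDKN1A (13 of 13 alternatives, log2 fold change 0.35 to 0.48) and CDKN2D (13 of 13, -1.18 to -0.66) kept their direction, with an adjusted p from 1.43e-05 to 0.316 and from 0.0209 to 0.342. CDKN1B turned to 0.0107 and 0.0089 in limma on log2(FPKM + 0.1) and log2(FPKM + 1), and its log2 ratio of mean levels went from just above 0 in FPKM to -0.079 on scaled counts. CDKN3 turned to -0.023 without the filter and ranged from -0.18 to 0.40 when 1 library was left out, with the highest value without NC library 3. Members with an adjusted p under 0.05 numbered 2 in DESeq2, 1 without the filter (also the 1 member called, CDKN2D) and 0 to 3 with 1 library left out, the 3 being without NC library 3, and 0 in the other alternatives.

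Over all tested genes, an adjusted p under 0.05 was met by 490 in the main test, 1676 in DESeq2, 1403 without the filter, 280 in limma on log2(FPKM + 0.1), and 0 to 5591 with 1 library left out. With an absolute log2 fold change over 1 the counts were 224, 498, 664, 125 (113 with a pseudocount of 1) and 0 to 491. Of the 491 without NC library 3, 166 were among the 224. Taken over each tested gene, the median was -0.02 in the main test and 0.09 in limma on log2(FPKM + 0.1). With the replicate number as a block, 0 genes passed either rule and the members' log2 fold changes were 0.40, -0.08, -0.94 and 0.08 for CDKN1A, CDKN1B, CDKN2D and CDKN3. The number was not taken as a pairing, because the labels do not say that it pairs libraries. Deviations of same-numbered libraries from their group means had correlations of -0.07, 0.04 and -0.04. With 3 libraries per group and NC library 3 standing apart, these values cannot decide whether the numbers pair libraries. The cause of these shifts was not tested. Depth limits the 5 silent members to statements of at most 3 counts in a library, MTAP in NC library 3 excepted.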

Other observations

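Near CDKN1C, the antisense RNA KCNQ1OT1, which silences CDKN1C on the paternal chromosome in many tissues, differed between the groups. It was named after its values were seen and lay below the filter on low values (mean 0.297 FPKM), because its annotated length is 91667 bases. It had 86, 102 and 49 counts in NC libraries 1, 2 and 3 and 332, 741 and 764 counts in the siRNA-labelled libraries 1, 2 and 3. The groups did not overlap, and siRNA-labelled library 1 lay well below the other two. Tested without the filter, where 1.95% of 34080 genes were called, its log2 fold change was 2.74 (SE 0.28, edgeR adjusted p 4.19e-06). Without NC library 3, an alternative added after the data were seen, it was 2.44 (SE 0.14, edgeR adjusted p 2.67e-36). In that fit 17.3% of 33506 genes had an adjusted p under 0.05. That p-value rests on a spread estimated over many genes. The counts of KCNQ1OT1 itself ran from 332 to 764 among the siRNA-labelled libraries. KCNQ1OT1 overlaps KCNQ1 on the other strand and the strand setting of the counting is not given in the sources used here. KCNQ1 had 0 to 6 counts per library. Beside it, 5 tested neighbours of CDKN1C gave 0 with an edgeR adjusted p under 0.05, 1 at an unadjusted p under 0.05 and 0 in DESeq2. With NC library 3 left out, where 35.2% of all tested genes passed, 1 of the 5, SLC22A18, was lower (log2 fold change -0.75, edgeR adjusted p 1.29e-05). With all libraries, SLC22A18 had a log2 fold change of -0.53 (edgeR adjusted p 0.180) and NAP1L4 one of -0.17 (edgeR adjusted p 0.501). The cause was not tested.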
